A study of Mus musculus with 8 samples.

Results

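The mouse Cyp2c genes encode cytochrome P450 enzymes of the endoplasmic reticulum that oxidise arachidonic and linoleic acid, retinoids and drugs. The 10 genes described here, Cyp2c29, Cyp2c37, Cyp2c38, Cyp2c39, Cyp2c50, Cyp2c54, Cyp2c55, Cyp2c67, Cyp2c68 and Cyp2c69, were taken by symbol from the deposited expression table. That table holds 18 genes named Cyp2c, and the count matrix holds 55401 genes in all. None of the 10 symbols occurred more than once, so no choice between copies was needed. The genes were measured by bulk RNA sequencing in liver of wild-type C57BL/6J mice, with 4 animals fed standard chow (controls) and 4 fed DDC (3,5-diethoxycarbonyl-1,4-dihydrocollidine, at 1%), each for 4 weeks. DDC raises porphyrins and is given to mice as a model of bile duct disease. The labels give neither the age nor the sex of the animals, and they give all libraries the same batch.

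In liver, a Cyp2c enzyme inserts 1 oxygen atom from molecular oxygen into its substrate and takes the electrons from cytochrome P450 oxidoreductase, with cytochrome b5 as a second donor for some reactions. Epoxidation of arachidonic acid gives epoxyeicosatrienoic acids, which epoxide hydrolases convert to diols. Several Cyp2c genes are induced by xenobiotics through the nuclear receptors CAR and PXR, and several differ between the sexes through the pattern of growth hormone secretion. The genes lie side by side on chromosome 19 and are close in sequence, which bears on how reads are assigned among them.

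The members fell into groups of close relatives. Coding sequences of Cyp2c67 and Cyp2c69 were 97.7% identical, those of Cyp2c67 and Cyp2c68 were 97.2% identical, and those of Cyp2c37 and Cyp2c50 were 96.1% identical. Cyp2c54 was 95.3% identical to Cyp2c50, and Cyp2c38 was 94.2% identical to Cyp2c39. Cyp2c29 was 89.5% identical to Cyp2c39, and Cyp2c55 stood farthest from the rest at 73.9% to 78.3%. The most alike group, Cyp2c67, Cyp2c68 and Cyp2c69, is shown by 90 bases of coding sequence, positions 217 to 306 counted from the A of the start codon (GENCODE M21, GRCm38). This stretch was picked for holding the most differing positions, so it is not typical of the group. Per 150 coding bases, the median number of differences was 4 for Cyp2c67 and Cyp2c68. It was 3 for Cyp2c67 and Cyp2c69, and 5 for Cyp2c68 and Cyp2c69. Capitals mark the 10 positions at which the 3 genes are not all alike.
Cyp2c67: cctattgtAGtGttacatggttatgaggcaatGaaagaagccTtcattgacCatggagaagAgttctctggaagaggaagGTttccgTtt
Cyp2c68: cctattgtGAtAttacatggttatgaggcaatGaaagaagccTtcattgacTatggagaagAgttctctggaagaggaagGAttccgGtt
Cyp2c69: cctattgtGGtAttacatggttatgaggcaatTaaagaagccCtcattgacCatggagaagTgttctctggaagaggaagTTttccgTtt

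Reads were 150 bases long, so every run of 150 bases in each member's GENCODE M21 transcript was searched for in the other Cyp2c transcripts. Of the runs in Cyp2c69, 22.5% occurred without a mismatch in Cyp2c40 or Cyp2c67, and of those in Cyp2c67, 13.0% occurred in Cyp2c40 or Cyp2c69. Of the runs in Cyp2c68, 8.83% occurred in Cyp2c40. The share was 3.25% for Cyp2c50, 2.99% for Cyp2c54 and 0.299% for Cyp2c37. For Cyp2c29, Cyp2c38, Cyp2c39 and Cyp2c55 it was 0. Counts of Cyp2c67, Cyp2c68, Cyp2c69 and Cyp2c40 are therefore uncertain as far as the authors' counting could split shared reads among them. Cyp2c67 and Cyp2c68 shared 0 such runs with each other and differed at 42 of 1476 coding bases. Runs of 150 coding bases in this pair differed at 1 to 10 positions, with a median of 4. The lack of exact shared runs therefore does not show that their reads were kept apart.

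The 250 bases upstream of the annotated start are shown for the 2 members that rose on DDC, Cyp2c29 and Cyp2c55, and for the Cyp2c67, Cyp2c68 and Cyp2c69 group (RefSeq, GRCm38.p6, each on its gene's strand). Capitals mark the letters TATAAA, the core of a TATA box, and CAAAGTCCA, the letters bound by hepatocyte nuclear factor HNF4. Cyp2c29 and Cyp2c55 lie on the plus strand at chr19:39286835-39287084 and chr19:39006769-39007018. The RefSeq start of Cyp2c29, at 39287085, lies inside the interval the deposited table gives for the gene, which begins at 39269405, so the annotations place its start differently. Cyp2c67, Cyp2c68 and Cyp2c69 lie on the minus strand at chr19:39649043-39649292, chr19:39741102-39741351 and chr19:39886770-39887019.
Cyp2c29: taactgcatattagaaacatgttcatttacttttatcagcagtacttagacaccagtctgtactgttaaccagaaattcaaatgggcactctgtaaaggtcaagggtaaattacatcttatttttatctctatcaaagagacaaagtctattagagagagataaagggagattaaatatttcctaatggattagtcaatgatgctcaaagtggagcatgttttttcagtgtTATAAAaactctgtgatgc
Cyp2c55: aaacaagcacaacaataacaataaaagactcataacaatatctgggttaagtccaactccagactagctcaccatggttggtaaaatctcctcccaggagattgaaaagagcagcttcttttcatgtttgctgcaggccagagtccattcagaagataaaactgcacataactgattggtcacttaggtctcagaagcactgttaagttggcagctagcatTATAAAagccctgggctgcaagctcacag
Cyp2c67: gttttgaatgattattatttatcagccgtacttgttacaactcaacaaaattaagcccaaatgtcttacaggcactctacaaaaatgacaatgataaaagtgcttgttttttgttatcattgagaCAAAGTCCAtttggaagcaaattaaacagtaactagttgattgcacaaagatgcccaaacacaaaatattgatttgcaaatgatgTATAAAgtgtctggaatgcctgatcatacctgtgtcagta
Cyp2c68: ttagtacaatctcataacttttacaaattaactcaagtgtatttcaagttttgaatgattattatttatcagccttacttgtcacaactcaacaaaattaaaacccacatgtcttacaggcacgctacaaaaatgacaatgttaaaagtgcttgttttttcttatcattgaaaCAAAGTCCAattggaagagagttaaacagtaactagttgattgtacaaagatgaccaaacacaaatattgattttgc
Cyp2c69: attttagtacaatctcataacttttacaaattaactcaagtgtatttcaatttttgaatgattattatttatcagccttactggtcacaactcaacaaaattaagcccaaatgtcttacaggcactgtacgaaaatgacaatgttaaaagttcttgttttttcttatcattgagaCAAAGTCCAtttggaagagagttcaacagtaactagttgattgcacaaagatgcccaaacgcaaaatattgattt

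Windows of 300 bases around the start, searched on both strands, were held for 9 of the 10 members, all but Cyp2c54. CAAAGTCCA was found in Cyp2c67, Cyp2c68 and Cyp2c69, at 125, 77 and 75 bases before the start, and in 0.475% of 32817 promoter windows of the same length. With 1 base left free, CAAAGTNCA was found in Cyp2c37 and Cyp2c50 as well, against 1.41% of all windows. Every CAAAGTCCA match is also a CAAAGTNCA match. TATAAA was found in 6 of the 9 windows, against 13.6% of all. It began 19, 31, 29 and 40 bases before the start in Cyp2c29, Cyp2c38, Cyp2c55 and Cyp2c67. In Cyp2c39 it began 3 bases before the start and in Cyp2c69 10 bases after it, so position relative to the annotated start differed. The STAT5 letters TTCNNNGAA were found in 0 of the 9, against 8.29% of all. The nuclear receptor letters AGGTCA was found in Cyp2c29 alone of the 9, against 16.3% of all windows. The variant AGTTCA was found in Cyp2c39, Cyp2c50 and Cyp2c69, against 14% of all. The 250 bases before each annotated start, aligned end to end, were 91.4% identical in Cyp2c68 and Cyp2c69 and 63.2% in Cyp2c67 and Cyp2c68. CAAAGTCCA lay 125 bases before the start in Cyp2c67 and 77 in Cyp2c68, so the windows of these genes are offset. The lower figure therefore does not measure how far their upstream sequences have diverged. A match in these windows describes letters and not binding.

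Control libraries held 61179103 to 64768950 counts and DDC libraries 63312756 to 81664058. Values in single libraries are depth-scaled counts (CPM) after scaling by trimmed mean of M-values (TMM), and tests are edgeR's quasi-likelihood test on 19535 genes with Benjamini-Hochberg adjustment, with a gene called at an adjusted p under 0.05. Before any comparison, the controls did not form 1 group: controls 1 and 3 stood apart from controls 2 and 4 in liver genes known to differ between the sexes, a list chosen after the values were seen. All 10 male-biased genes were lower in controls 1 and 3 than in both others, against 21.9% of all tested genes. Of 8 tested female-biased genes, 7 were higher in controls 1 and 3, against 25.9% of all. The cytochrome P450 gene Cyp2b9, female-biased in mouse liver, was at 238, 7.76, 298 and 8.45 CPM in controls 1 to 4 and at 70.1, 49.6, 46.1 and 43.5 CPM in DDC 1 to 4. The steroid dehydrogenase Hsd3b5, male-biased, was at 1.88, 74.3, 3.08 and 102 CPM in controls 1 to 4 and at 3.32, 1.2, 0.512 and 1.11 CPM in DDC 1 to 4. Summed over the 10 male-biased genes, CPM was 2009, 10599, 1858 and 10609 in controls 1 to 4 and 1716, 1098, 970 and 974 in DDC 1 to 4. Summed over the 11 listed female-biased genes, it was 748, 20.5, 932 and 26.8 in controls 1 to 4 and 618, 386, 477 and 346 in DDC 1 to 4. All 8 libraries held the 4 Y-linked genes examined at 10.6 CPM or more and Xist, the transcript of the inactive X, at no more than 66 counts.

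The members shared this split of the controls. In 9 of 10 members, controls 1 and 3 both lay above controls 2 and 4, against 25.9% of all tested genes. The mean of controls 1 and 3 over that of controls 2 and 4 was 3.65 for Cyp2c39, 2.70 for Cyp2c69, 2.43 for Cyp2c38, 1.92 for Cyp2c68, 1.79 for Cyp2c55 and 1.57 for Cyp2c37. It was 1.27 for Cyp2c54, 1.22 for Cyp2c50 and 1.02 for Cyp2c67, and Cyp2c29, at 1.10, was the member whose controls were mixed. Comparisons of the members and of the genes and lists named below are therefore also given without either pair of controls where that changes a call, a choice made after the values were seen. The part of this split in the differences between diets was not tested.

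**Figure D1:**
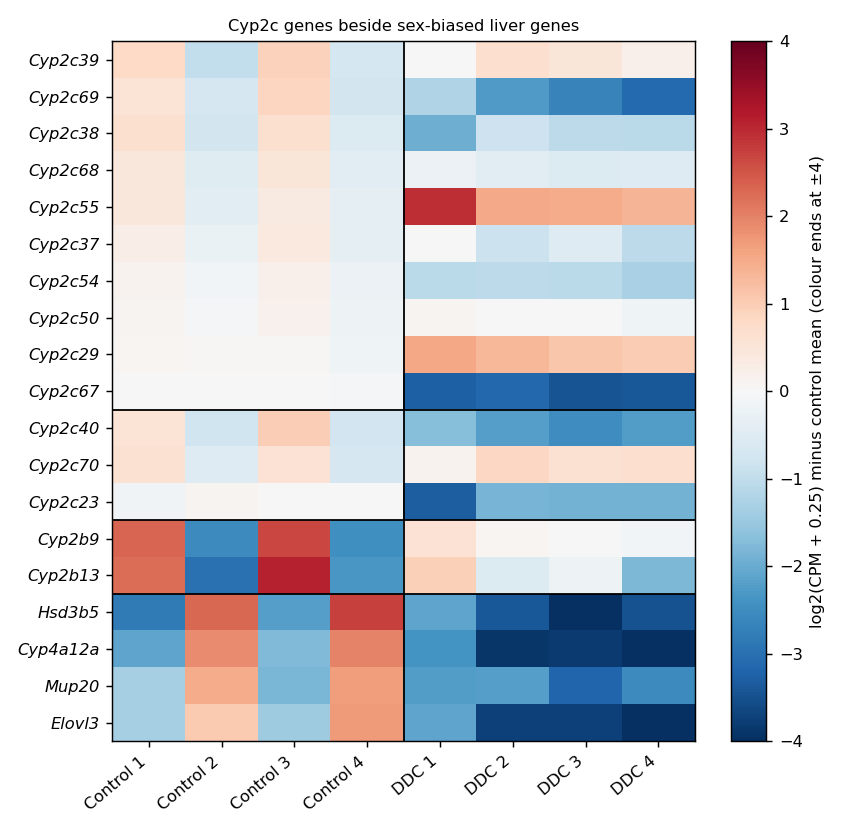
Heat map of log2(CPM + 0.25) less the control mean, with the 8 libraries as columns and, from the top, the 10 members, 3 other Cyp2c genes, 2 female-biased and 4 male-biased liver genes as rows. Controls 1 and 3 are above controls 2 and 4 in most members, more so in Cyp2b9, and below them in Hsd3b5, with the members ordered by their ratio of 3.65 for Cyp2c39 down to 1.02 for Cyp2c67.

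The family split on DDC: Cyp2c29 and Cyp2c55 rose, Cyp2c67, Cyp2c69, Cyp2c54 and Cyp2c38 fell, and Cyp2c37, Cyp2c39, Cyp2c50 and Cyp2c68 did not pass the test. All 10 members passed the filter on low counts. Of them 6 were called, or 60.0%, against 56.8% of all tested genes, so the share called is near the background. Those higher on DDC were 2 of 10 (30.2% of all tested genes) and those lower were 4 of 10 (26.6% of all). The ranges of the groups did not overlap in 6 members, against 52.6% of all genes. The members' median log2 fold change was -0.55 and that of all tested genes 0.073. In bulk liver, fewer cells of a type and less RNA per cell cannot be told apart.

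**Figure D2:**
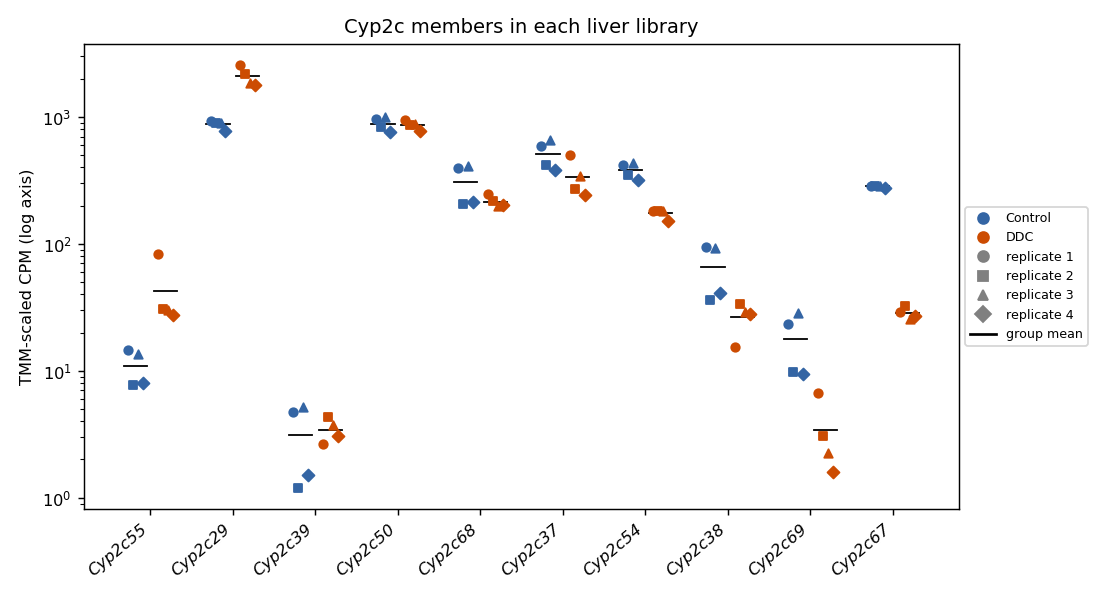
TMM-scaled CPM on a log axis of each Cyp2c member in every library, with 4 control and 4 DDC mice as points whose shape gives the replicate number and each group's mean as a line. The groups are apart in Cyp2c29, Cyp2c55, Cyp2c67, Cyp2c69, Cyp2c54 and Cyp2c38 and overlap in the other 4.

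Cyp2c29 (ENSMUSG00000003053, chr19:39269405-39330699, GRCm38, plus strand) is a phenobarbital-inducible enzyme that epoxidises arachidonic acid. Over all 8 libraries it had the highest mean deposited FPKM of the 10, although in controls Cyp2c50 was higher by that measure. Its CPM was 931, 902, 898 and 767 in controls 1 to 4 and 2555, 2167, 1862 and 1779 in DDC 1 to 4. Every DDC liver lay above every control. From a control mean of 874 ± 72.8 CPM it rose 2.39-fold to 2091 ± 352 (SD, n = 4 per diet), a log2 fold change of 1.26 with a 95% interval of 0.99 to 1.53 (edgeR adjusted p = 1.73e-05). The interval of the pseudogene Cyp2c53-ps overlaps that of Cyp2c29 on the same strand, and Cyp2c53-ps held 0 to 40 counts per library.

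Cyp2c55 (ENSMUSG00000025002, chr19:39007019-39042693, plus strand) hydroxylates arachidonic acid and is known from the intestine and as a gene induced through CAR and PXR in liver. Its CPM was 14.6, 7.70, 13.5 and 8.03 in controls 1 to 4 and 82.9, 30.6, 30.1 and 27.5 in DDC 1 to 4. DDC 1 stood well above the other 3, and all 4 lay above the controls. The mean rose 3.90-fold, from 11.0 ± 3.60 to 42.8 ± 26.8 CPM (n = 4 each), a log2 fold change of 1.96 with a 95% interval of 0.95 to 2.98 (edgeR adjusted p = 0.00601). Without DDC 1 the log2 fold change was 1.40 (edgeR adjusted p = 0.000852), and without controls 2 and 4 it was 1.60 and the call ended (adjusted p = 0.0771).

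Cyp2c67 (ENSMUSG00000062624, chr19:39608842-39649051, minus strand) showed the largest fall of the 10, and its levels were tight within each diet. Its CPM was 288, 285, 286 and 276 in controls 1 to 4 and 29.0, 32.1, 25.7 and 26.9 in DDC 1 to 4. The controls that stood apart in other members were level here. The mean fell 9.97-fold, from 284 ± 5.41 to 28.4 ± 2.80 CPM (n = 4 each), a log2 fold change of -3.32 with a 95% interval of -3.50 to -3.14 (edgeR adjusted p = 1.77e-08). Without controls 1 and 3 it was -3.31, and without controls 2 and 4 it was -3.35.

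Cyp2c69 (ENSMUSG00000092008, chr19:39842814-39886799, minus strand), its closest relative, fell from a lower level. Its CPM was 23.3, 9.76, 28.5 and 9.40 in controls 1 to 4 and 6.74, 3.04, 2.26 and 1.59 in DDC 1 to 4. The groups did not overlap, and controls 1 and 3 were the highest. The mean fell 5.22-fold, from 17.7 ± 9.64 to 3.41 ± 2.30 CPM (n = 4 each), a log2 fold change of -2.38 with a 95% interval of -3.70 to -1.07 (edgeR adjusted p = 0.00775). It was -2.97 without DDC 1, and without controls 1 and 3 it was -1.5 and the call ended (adjusted p = 0.055).

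Cyp2c68 (ENSMUSG00000074882, chr19:39688834-39741054, minus strand), the other close relative, did not pass the test. Its CPM was 394, 207, 409 and 212 in controls 1 to 4 and 246, 216, 197 and 202 in DDC 1 to 4. The DDC livers overlapped controls 2 and 4. The log2 fold change was -0.51 with a 95% interval of -1.05 to 0.04 (edgeR adjusted p = 0.0987). It passed without control 2 (-0.66, adjusted p = 0.0303), without control 4 (-0.66, adjusted p = 0.0391) and without both (-0.91, adjusted p = 0.000123), and it was 0.03 without controls 1 and 3 (adjusted p = 0.811). With DESeq2's own test it passed as well (-0.51, adjusted p = 0.0371).

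The ratio of 2 members in the same library does not depend on how libraries are scaled. The deposited FPKM (fragments scaled by transcript length and library depth) of Cyp2c68 over that of Cyp2c67 was 1.38, 0.730, 1.43 and 0.774 in controls 1 to 4 and 8.53, 6.74, 7.70 and 7.54 in DDC 1 to 4. The lowest DDC ratio was far above the highest control ratio, and the means were 1.08 ± 0.379 and 7.63 ± 0.737 (n = 4 each). In the deposited FPKM these 2 genes thus stood apart on DDC although their coding sequences are 97.2% identical.

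Cyp2c54 (ENSMUSG00000067225, chr19:40037940-40073827, minus strand) epoxidises arachidonic and linoleic acid. Its CPM was 417, 351, 434 and 318 in controls 1 to 4 and 179.9, 181.8, 179.9 and 151.7 in DDC 1 to 4. Each DDC liver lay below each control. The mean fell 2.19-fold, from 380.1 ± 54.8 to 173 ± 14.4 CPM (n = 4 each), a log2 fold change of -1.13 with a 95% interval of -1.38 to -0.89 (edgeR adjusted p = 1.87e-05).

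Cyp2c50 (ENSMUSG00000054827, chr19:40089688-40113950, plus strand) also epoxidises both fatty acids, and no difference between diets was found. Its CPM was 956, 835, 991 and 756 in controls 1 to 4 and 948, 865, 873 and 776 in DDC 1 to 4. The DDC livers lay inside the range of the controls. The log2 fold change was -0.03 with a 95% interval of -0.26 to 0.19 (edgeR adjusted p = 0.800). Its FPKM over that of Cyp2c54 was 1.40, 1.46, 1.40 and 1.45 in controls 1 to 4 and 3.22, 2.91, 2.97 and 3.13 in DDC 1 to 4. The 2 ranges of this ratio were far apart, with means of 1.43 ± 0.0324 and 3.06 ± 0.144 (n = 4 each).

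Cyp2c37 (ENSMUSG00000042248, chr19:39992424-40012243, plus strand), an arachidonic acid hydroxylase induced through CAR, was spread widely within both diets. Its CPM was 592, 414, 652 and 378 in controls 1 to 4 and 499, 270.3, 344 and 240.2 in DDC 1 to 4. DDC 1 lay above controls 2 and 4, so the groups overlapped. The log2 fold change was -0.59 with a 95% interval of -1.19 to 0.01 (edgeR adjusted p = 0.0846). It passed without DDC 1 (-0.86, adjusted p = 0.0105) and without controls 2 and 4 (-0.89, adjusted p = 0.0482).

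Cyp2c38 (ENSMUSG00000032808, chr19:39389556-39463075, minus strand) epoxidises arachidonic acid. Its CPM was 94.0, 35.8, 93.0 and 41.1 in controls 1 to 4 and 15.4, 33.4, 29.2 and 28.2 in DDC 1 to 4. The groups did not overlap, but the highest DDC liver came close to control 2. The mean fell 2.49-fold, from 65.9 ± 31.8 to 26.5 ± 7.76 CPM (n = 4 each), a log2 fold change of -1.31 with a 95% interval of -2.24 to -0.39 (edgeR adjusted p = 0.0239). The call ended without control 1 (-1.10, adjusted p = 0.0549), without control 3 (-1.11, adjusted p = 0.0538), without both (-0.54, adjusted p = 0.159) and without DDC 1 (-1.14, adjusted p = 0.0535).

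Cyp2c39 (ENSMUSG00000025003, chr19:39510862-39568529, plus strand), which hydroxylates retinoic acid, was the least abundant member in controls. Its CPM was 4.71, 1.2, 5.16 and 1.51 in controls 1 to 4 and 2.65, 4.33, 3.74 and 3.05 in DDC 1 to 4. All DDC livers lay between the high and the low pair of controls. The log2 fold change was 0.13 with a 95% interval of -0.90 to 1.16 (edgeR adjusted p = 0.823). Without controls 1 and 3 it was 1.34 and passed (adjusted p = 0.00864), and without controls 2 and 4 it was -0.53 (adjusted p = 0.0965).

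Without controls 1 and 3, 5 of the 10 members were called, 3 higher and 2 lower, against 45.7% of all tested genes (24.1% higher and 21.7% lower). Without controls 2 and 4, 7 of the 10 were called, 1 higher and 6 lower, against 48.7% of all (25.4% higher and 23.3% lower). Cyp2c29, Cyp2c67 and Cyp2c54 kept their calls and directions in both. Their log2 fold changes without controls 1 and 3 were 1.32, -3.31 and -0.95, and without controls 2 and 4 they were 1.18, -3.35 and -1.31.

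The scaling of the libraries moved every log2 fold change. TMM factors were 0.7918 to 0.8155 in controls and 1.212 to 1.269 in DDC livers. With library totals alone, all tested genes had a median log2 fold change of 0.70 and 86.8% of all calls were higher on DDC, against 53.1% with TMM. Cyp2c37, Cyp2c50 and Cyp2c68 then turned to 0.03, 0.59 and 0.11, and Cyp2c50 was called higher (adjusted p = 0.000575). Cyp2c38 was no longer called (-0.69, adjusted p = 0.154). Cyp2c29 was at 1.88, Cyp2c55 at 2.58, Cyp2c67 at -2.70, Cyp2c69 at -1.77 and Cyp2c54 at -0.51, each called in the direction it had with TMM. Under totals alone 6 of the 10 members were thus called, 3 higher and 3 lower, against 67.9% of all tested genes (58.9% higher and 8.96% lower). Less the median of all genes under the same scaling, Cyp2c29 lay at 1.18 with TMM and at 1.18 with totals alone, and Cyp2c67 lay at -3.39 in both.

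**Figure D3:**
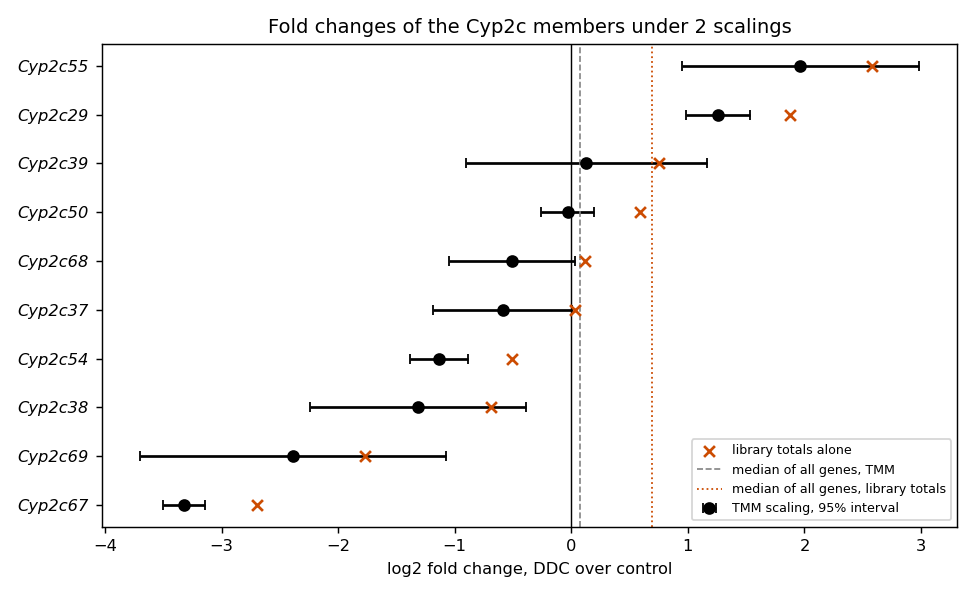
Log2 fold change of DDC over control for each Cyp2c member, as points with 95% intervals under TMM scaling and as crosses with library totals alone, with lines at the median of all tested genes under each (0.073 and 0.70). Crosses lie to the right of the points for every member, and those of Cyp2c37, Cyp2c50 and Cyp2c68 are on the other side of 0.

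Levels per length order the members, here with the lengths behind the deposited FPKM. In control livers the deposited FPKM was 236 ± 30.9 for Cyp2c50, 223 ± 21.03 for Cyp2c29 and 218 ± 58.1 for Cyp2c37 (SD, n = 4 each), which lay within each other's spread. Cyp2c54 at 166 ± 25.1, Cyp2c68 at 138 ± 50.7 and Cyp2c67 at 128 ± 4.08 came next, and neighbours in that order also overlapped. Cyp2c38 at 17.9 ± 8.71, Cyp2c69 at 8.09 ± 4.44, Cyp2c55 at 4.28 ± 1.42 and Cyp2c39 at 1.34 ± 0.896 made up the low end. In DDC livers Cyp2c29 led with 814 ± 123, ahead of Cyp2c50 with 354 ± 25.9, Cyp2c37 with 221 ± 73.9, Cyp2c68 with 148.9 ± 13.1 and Cyp2c54 with 116 ± 8.73. The ranges of Cyp2c37 and Cyp2c68 overlapped. Cyp2c55 at 25.5 ± 15.7 and Cyp2c67 at 19.6 ± 1.51 could not be separated by their spread, and Cyp2c38 followed at 11.0 ± 3.23. Cyp2c69 at 2.36 ± 1.57 and Cyp2c39 at 2.26 ± 0.474 closed the order. Among the 33467 genes of the table ranked by mean FPKM, Cyp2c29 stood at 216 in controls and 57 on DDC, Cyp2c67 at 328 and 1985, and Cyp2c55 at 5512 and 1528.

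The make-up of the family's transcripts differed between the diets. Summed over the 10 members, the deposited FPKM was 1275, 1035, 1331 and 918 in controls 1 to 4 and 2056, 1666, 1653 and 1484 in DDC 1 to 4. Those ranges were apart, but divided by each library's TMM factor the sums were 1414 ± 235 and 1383 ± 213 (n = 4 each) and overlapped. Cyp2c29 supplied 19.8% ± 2.31 of the summed FPKM in controls and 47.5% ± 1.92 on DDC, with ranges of 17.3 to 22.5% and 44.9 to 49.5%. Cyp2c67 supplied 11.4% ± 1.73 and 1.16% ± 0.159, Cyp2c54 14.6% ± 0.356 and 6.82% ± 0.728, and Cyp2c37 18.9% ± 1.89 and 12.7% ± 2.54. Cyp2c50 supplied 20.8% ± 0.973 and 20.8% ± 1.57. Cyp2c68 supplied 11.8% ± 2.50 and 8.74% ± 0.610.

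These shares, and the order of levels above, depend on the length used. The lengths behind the deposited FPKM were 3176 bases for Cyp2c29 and 3028 for Cyp2c50, against GENCODE M21 transcripts of 1783 and 1812 bases. With those transcript lengths, chosen after the values were seen, Cyp2c29 supplied 26.7% ± 2.66 in controls and 55.5% ± 1.92 on DDC, and Cyp2c50 26.4% ± 0.791 and 22.8% ± 1.69. Cyp2c37 then supplied 14.9% ± 1.75 and 8.65% ± 1.81, so in controls it lay below Cyp2c29 and Cyp2c50.

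**Figure D4:**
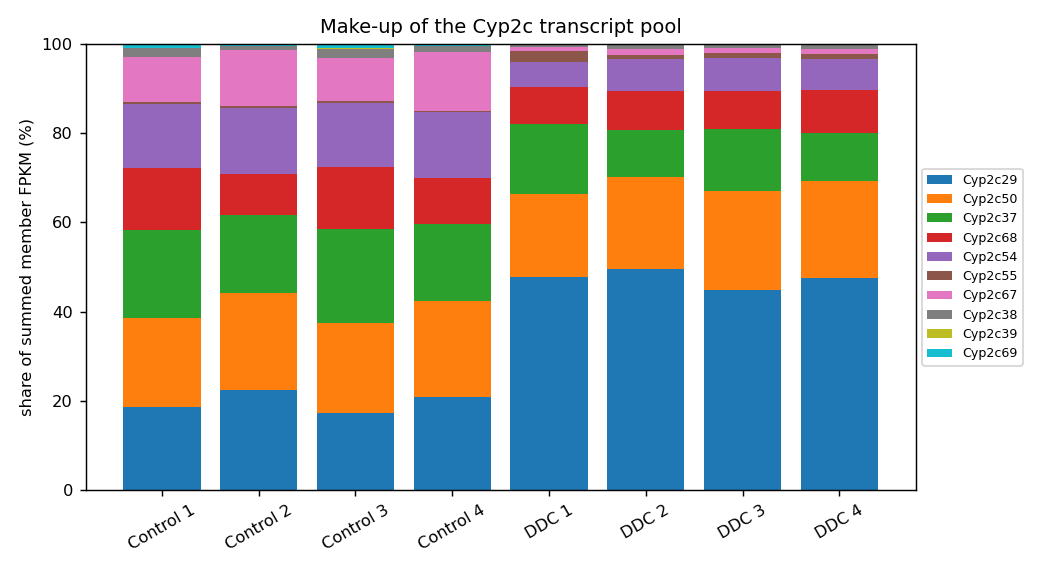
Share of each Cyp2c member in the summed deposited FPKM of the 10, in percent, for each of the 8 libraries. Cyp2c29 takes 17.3 to 22.5% in controls and 44.9 to 49.5% in DDC livers, while Cyp2c67 shrinks from 11.4% to 1.16%.

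Of the other Cyp2c genes, Cyp2c40 and Cyp2c23 fell and Cyp2c70 did not pass over all 8 libraries. Cyp2c40, an arachidonic acid hydroxylase gene between Cyp2c68 and Cyp2c69 (chr19:39767071-39812814), was at 80.2, 31.5, 108 and 32.2 CPM in controls 1 to 4 and at 16.7, 11.7, 9.60 and 11.5 CPM in DDC 1 to 4. It fell 5.10-fold (edgeR adjusted p = 0.00325), and its controls were split like those of Cyp2c69. Leaving out controls 1 and 3 put its log2 fold change at -1.37 and leaving out controls 2 and 4 at -2.94, and it was called in both. Cyp2c23, an arachidonic acid epoxygenase gene apart from the cluster (chr19:44005022-44029208), was at 474, 562, 513 and 526 CPM in controls 1 to 4 and at 52.9, 141, 140.4 and 140.0 CPM in DDC 1 to 4. It fell 4.37-fold (adjusted p = 0.000353), with DDC 1 lowest. Cyp2c70, which forms muricholic acids in mouse bile acid synthesis, was at 341 ± 154 CPM in controls and 471 ± 91.3 CPM on DDC (log2 fold change 0.47, adjusted p = 0.25). Leaving out controls 1 and 3 put it at 1.18 and called (edgeR adjusted p = 0.00211), and leaving out controls 2 and 4 put it at -0.02 and not called (adjusted p = 0.94). Scaling by library totals alone put it at 1.09 and called (adjusted p = 0.018).

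Among the genes that serve P450 enzymes, electron donors and heme-binding partners fell in 5 of 6 and did not pass in 1 (median log2 fold change -0.66, against 0.073 over all genes). Por, the oxidoreductase that supplies the electrons, fell 2.38-fold from 1388 ± 75.8 to 584 ± 18.4 CPM (n = 4 each, edgeR adjusted p = 3.06e-07). Cyb5b, an outer mitochondrial cytochrome b5, fell 2.06-fold (adjusted p = 1.5e-05). Cyb5a, the other cytochrome b5 gene of the list, was the 1 that did not pass (log2 fold change -0.25, adjusted p = 0.0586). Its groups overlapped. Pgrmc1, a heme-binding partner of P450 enzymes, fell 1.64-fold (adjusted p = 1.01e-05), and Cyb5r3, a cytochrome b5 reductase, fell 1.53-fold (adjusted p = 0.00704). With library totals alone 2 of the 6 were called lower and 1 higher, Por was still lower (-0.63), Pgrmc1 was no longer called (-0.09, adjusted p = 0.19) and neither was Cyb5r3 (0.01). Without controls 2 and 4, 6 of the 6 were called lower. For this list and those below, the shares of all tested genes with TMM were 30.2% called higher and 26.6% lower. With library totals alone they were 58.9% and 8.96%. They were 24.1% and 21.7% without controls 1 and 3, and 25.4% and 23.3% without controls 2 and 4.

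Of 7 tested genes that release arachidonic acid or make and cleave its epoxides, 4 fell, 2 rose and 1 did not pass (median log2 fold change -1.06). Cyp2j5, an epoxygenase of another P450 subfamily, fell 6.58-fold from 570 ± 23.7 to 86.6 ± 16.7 CPM (n = 4 each, edgeR adjusted p = 3.02e-07). Ephx2, the soluble hydrolase of these epoxides, fell 4.49-fold (adjusted p = 2.74e-07), and Cyp2j9 fell 2.08-fold (adjusted p = 0.000506). Ephx1, the other epoxide hydrolase of the list, rose 1.58-fold from 354 ± 87.5 to 562 ± 40.1 CPM (adjusted p = 0.00509). Pla2g4a, the cytosolic phospholipase that frees arachidonic acid, rose 4.14-fold from 1.30 ± 0.676 to 5.37 ± 0.707 CPM (adjusted p = 0.000906). With library totals alone 3 were called higher and 2 lower, and Cyp2j9 was no longer called (adjusted p = 0.053).

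All 15 receptors and factors known to act on Cyp2c genes fell with TMM over the 8 libraries (median log2 fold change -0.87). It was 14 of them once controls 1 and 3 were left out and 13 once controls 2 and 4 were, and with library totals alone 7 were called lower and 0 higher. Hnf4a, a nuclear receptor of hepatocytes, fell 2.36-fold from 881 ± 44.3 to 374 ± 11.4 CPM (n = 4 each, edgeR adjusted p = 2.81e-07). Cebpb, a leucine zipper factor, fell 2.73-fold (adjusted p = 1.65e-06), and its relative Cebpa fell 2.09-fold (adjusted p = 0.00097), a call that ended with library totals alone (adjusted p = 0.0567). Ppargc1a, a coactivator of nuclear receptors, fell 3.89-fold over all 8 libraries (adjusted p = 0.0163), and its log2 fold change of -1.96 became -2.84 without DDC 1. Its call ended when either pair of controls was left out (adjusted p = 0.0632 for controls 1 and 3, and 0.0825 for controls 2 and 4). Nr1i3, which encodes CAR, fell 1.83-fold from 335 ± 41.9 to 183 ± 17.2 CPM (adjusted p = 6.06e-05), and Nr1i2, which encodes PXR, fell 1.85-fold (adjusted p = 1.09e-06). These last 2 were named for their role and after their values were seen.

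Targets of CAR and PXR outside the family went both ways: of 16, 5 rose, 6 fell and 5 did not pass (median log2 fold change -0.42). Of all tested genes 30.2% rose and 26.6% fell. With library totals alone 7 of the 16 rose and 3 fell, against 58.9% and 8.96% of all genes. With controls 1 and 3 left out, 7 rose and 6 fell, and the median turned to 0.20. Without controls 2 and 4, 5 rose and 10 fell, with a median of -0.65. Cyp2b10, the classic CAR target among P450 genes, was at 36.4, 18.95, 41.0 and 20.9 CPM in controls 1 to 4 and at 543, 258, 267 and 236 CPM in DDC 1 to 4. It rose 11.1-fold (edgeR adjusted p = 0.000138), and DDC 1 was its highest library as it was for Cyp2c55. Sult2a1, a sulfotransferase of bile acids and steroids, rose 75.9-fold from 0.699 ± 0.428 to 52.7 ± 41.6 CPM (n = 4 each, adjusted p = 0.000314), a log2 fold change of 6.25 that was 5.54 without DDC 1, 5.71 without controls 1 and 3 and 7.05 without controls 2 and 4. Gsta2, a glutathione transferase, rose 2.61-fold (adjusted p = 1.23e-05), and Ces2a, a carboxylesterase, fell 4.11-fold (adjusted p = 1.11e-06).

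Markers of the cells in these livers moved with the diet. Of 12 hepatocyte markers, 11 fell and 1 did not pass (median log2 fold change -0.97), and their summed CPM was 169265 to 200291 in controls and 92467 to 106449 on DDC. Of 12 pericentral markers, the zone in which many P450 genes are expressed, 9 fell and 3 did not pass (median -1.85), with sums of 18622 to 20476 and 3435 to 4080 CPM. Of 12 periportal markers 12 fell (median -1.63). Macrophage markers rose in 12 of 12 (median 3.17, sums of 288 to 352 and 1614 to 1714 CPM) and bile duct markers in 9 of 10 (median 2.63, sums of 85.9 to 184 and 780 to 1180 CPM). Of the 10 bile duct markers, 6 were called without controls 1 and 3 and 10 without controls 2 and 4. Krt19, a keratin of bile duct cells named after its values were seen, was at 13.3, 60.7, 11.8 and 5.37 CPM in controls 1 to 4 and at 35.9, 26.7, 46.5 and 32.7 CPM in DDC 1 to 4, so control 2 was its highest library. Stellate cell markers rose in 7 of 10 and sinusoidal endothelial markers in 4 of 8. Of all tested genes 30.2% rose and 26.6% fell. With controls 1 and 3 left out and then with controls 2 and 4 left out, periportal markers fell in 11 and 12, macrophage markers rose in 11 and 11, stellate cell markers rose in 8 and 9, and pericentral markers fell in 9 and 10. Intestinal markers then gave 1 rise and 2 falls in both. Of intestinal markers, 0 rose and 2 of 4 tested fell. With library totals alone these were 2 rises and 9 falls in hepatocyte markers, 1 and 9 in pericentral ones, 1 and 8 in periportal ones, and 1 and 2 in intestinal ones. Under the same scaling 8 of 8 sinusoidal endothelial markers and 8 of 10 stellate cell markers rose, against 58.9% of all tested genes. Their median log2 fold changes were then 1.08 and 2.18, against 0.70 over all genes. With upper-quartile scaling 6 of 8 and 8 of 10 rose. The part of cell makeup in the family's differences was not tested.

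Less the median of the hepatocyte markers, the members' log2 fold changes were 2.93 for Cyp2c55, 2.22 for Cyp2c29, 1.10 for Cyp2c39, 0.93 for Cyp2c50, 0.46 for Cyp2c68 and 0.38 for Cyp2c37. Cyp2c54 at -0.17 and Cyp2c38 at -0.35 lay near that median, and Cyp2c69 at -1.42 and Cyp2c67 at -2.35 lay below it. These differences are a description and carry no test.

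Outside the family, 8783 genes with a mean of at least 10 CPM were ranked by how closely they followed a member across the 8 libraries, as the root mean square difference of log2(CPM + 0.25) from the control mean. This measure includes the shift between diets, so genes with a similar fold rank near and need not vary alike within a diet. Among the 5 nearest to Cyp2c29 were Mrc1, the macrophage mannose receptor, at 0.0798, Samd9l at 0.108, the lysosomal protease Ctsd at 0.127 and the phosphatase Ptpn6 at 0.131. Their log2 fold changes were 1.22, 1.37, 1.20 and 1.16, against 1.26 for Cyp2c29. The 5 nearest to Cyp2c55 were G6pdx, of the pentose phosphate pathway, at 0.236, the quinone reductase Nqo1 at 0.257, Id1 at 0.317, Ifi204 at 0.324 and Lhfp at 0.355. Among the members themselves, Cyp2c68 and Cyp2c37 were nearest to each other at 0.281, and Cyp2c55 and Cyp2c29 lay at 0.589.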

How the data were processed

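RNA from 8 livers was sequenced after poly(A) selection, with dUTP in the second strand, per the labels. The deposited gene counts are whole numbers without normalization. The deposited FPKM values are counts the authors scaled by length and depth. The submitters' processing notes list HISAT2, StringTie, cutadapt, FastQC and DESeq2, and the builds GRCm38 and mm10. The sources used here do not say whether strand was used in counting, so overlapping genes may share reads.

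Counts of all 55401 genes were fitted by robust quasi-likelihood in edgeR 4.0.16 under R 4.3.3, after filterByExpr and TMM scaling, without covariates. Tests were two-sided, adjusted by Benjamini-Hochberg over 19535 genes at 0.05. The standard error is the log2 fold change over the square root of F. Alternatives used DESeq2 1.42.0 and limma 3.58.1 on log2 FPKM with pseudocounts of 0.1 and 1, so that folds of low genes are understated there. The scripts were tested on simulated counts. The labels call the animals biological replicates. Depth limits precision for counting error only.

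The members, gene lists and rule for named genes were chosen with earlier results of these data known. The rule names all members and, per list, up to 4 called genes with the largest fold at 1 CPM or more in the higher group, plus the largest called gene against the majority. Likeness was computed for the most abundant member and the one with the largest rise. Other genes named were chosen after their values were seen. Of the genes the rule for likeness names, 1 is not reported here. No promoter window for Cyp2c54 was used here.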

Additional observations from a re-analysis of the deposited data

Results flagged for a closer look

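In 6 of 56 groups of 4 libraries examined, 1 library stood far from the other 3 by Dixon's criterion, and chance gives about 1 in 20. Cyp2c55 was highest in DDC 1, at 82.9 CPM. Cyp2c54 was lowest in DDC 4, at 151.7 CPM. Cyp2c23 was lowest in DDC 1, at 52.9 CPM. Cyp2b10 was highest in DDC 1, at 543 CPM, and Ppargc1a was highest there too, at 28.0 CPM. Cyp2j5 was lowest in control 2, at 534.5 CPM.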

How the results depend on the processing

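Under totals alone 11505 genes were called higher and 1750 lower, under limma on log2(FPKM + 0.1) 11976 and 1826, and under limma on log2(FPKM + 1) 11987 and 1815, against 5893 and 5205 with TMM. Neither form of limma uses TMM factors. The log2 fold change of Cyp2c37 was 0.031 under totals and 0.0068 and 0.0069 under limma, that of Cyp2c38 -0.69, -0.61 and -0.57, that of Cyp2c50 0.59 in each, and that of Cyp2c68 0.11, 0.18 and 0.18. Without a count filter Cyp2c38 was at -1.27 (adjusted p = 0.0687) and Cyp2c50 at 0.013, and with upper-quartile scaling Cyp2c50 was at 0.032. DESeq2 put Cyp2c68 at -0.51 and called it. Same-numbered controls and DDC livers shared only a number, with correlations of their deviations of -0.253, -0.211, 0.027 and -0.084. With the replicate number as a block, 9464 genes and 6 members were called, with Cyp2c37 at -0.61 (adjusted p = 0.0067) and called and Cyp2c38 at -1.22 and no longer called (adjusted p = 0.0902).

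Without controls 1 and 3, 2 members were called lower, with Cyp2c38 at -0.54, Cyp2c39 at 1.34, Cyp2c50 at 0.12, Cyp2c68 at 0.03 and Cyp2c69 at -1.5. Without controls 2 and 4, 1 member was called higher, with Cyp2c37 at -0.89, Cyp2c39 at -0.53, Cyp2c55 at 1.60 and Cyp2c68 at -0.91. Leaving out each library in turn gave 9632 to 11760 called genes and 5 to 7 called members. Log2 fold changes ran from 1.13 to 1.34 for Cyp2c29, -0.86 to -0.44 for Cyp2c37, -1.53 to -1.10 for Cyp2c38, -0.15 to 0.47 for Cyp2c39, -0.11 to 0.0282 for Cyp2c50, -1.22 to -1.06 for Cyp2c54, 1.40 to 2.15 for Cyp2c55, -3.37 to -3.26 for Cyp2c67, -0.66 to -0.34 for Cyp2c68 and -2.97 to -2.07 for Cyp2c69. The cause of these shifts was not tested beyond what each alternative leaves out. Cyp2c29, Cyp2c54 and Cyp2c67 kept direction and call in every alternative run. Cyp2c39, at 61 to 387 counts a library, had the fewest of the members in the controls and in DDC 1. Cyp2c69 had the fewest in DDC 2 to 4, at 257, 234 and 146.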

Other observations

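Cyp2c65 and Cyp2c66, Cyp2c genes known from the intestine, were too low to be tested. Cyp2c65 had 4, 321, 0 and 0 counts in controls 1 to 4 and 20, 8, 0 and 11 in DDC 1 to 4, so control 2 held most of them, and Cyp2c66 had 7 counts in DDC 4 and 0 in the other libraries.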
